A study of Mus musculus with 24 samples.

Results

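The miR-181 family is a group of microRNAs (miRNAs) that share 1 seed, the bases by which a miRNA pairs with its target mRNAs. The family was followed here in mouse muscle stem cells through its 2 measured 5′ strands, mmu-miR-181a and mmu-miR-181c. They were found by assay name and are 2 of 584 miRNA assays measured, of which 375 sit on card A and 209 on card B. Both members are on card A, in 1 spot each. Another strand of the family, mmu-miR-181a-1*, is on card B in 2 spots and is described apart.

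Muscle stem cells lie quiescent beside the muscle fibre and are activated by injury, after which their progeny divide, differentiate and fuse. The 4 groups were quiescent cells at 0 h and activated cells at 36, 60 and 72 h after injury. The authors' deposited table for card A marks the later times D15, D25 and D35, which read as days 1.5, 2.5 and 3.5 are 36, 60 and 84 h. The last time point thus differs between the labels and that table. The card B table writes days 1.5 and 2.5 out in its column names. The labels were followed throughout, and a 72 h value means a sample so labelled. All came from male C57BL/6 mice aged 8 weeks, for which the labels name no transgene, no kind of injury and no cell sort. Each group had 3 replicates, measured on both cards (12 arrays per card), and the design text of the series calls the replicates technical. The p-values below therefore reflect the spread between technical replicates and say nothing of differences between mice. The series asks how miRNA levels change during the activation of these cells.

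A miRNA is cut from a hairpin whose arms give a 5′ and a 3′ strand, and 1 of the strands usually stays bound in the silencing complex. The family is best known in lymphocytes, where miR-181a modulates the sensitivity of the T cell receptor. In cultured mouse myoblasts miR-181 has been reported to be induced on differentiation and to repress the homeobox gene Hoxa11. Mouse carries miR-181a in 2 loci, each beside a miR-181b gene, and carries miR-181c beside miR-181d.

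The mature sequences are shown because the 2 members differ so little outside the seed. The 4 family members of the 5′ arm are given 5′ to 3′ from RefSeq (GRCm38.p6), with the seed, bases 2 to 8, in capitals.
miR-181a-5p: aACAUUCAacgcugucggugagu
miR-181c-5p: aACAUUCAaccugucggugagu
miR-181b-5p: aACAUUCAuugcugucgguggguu
miR-181d-5p: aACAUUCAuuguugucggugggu
The seed ACAUUCA was held by 4 of 1679 mature mouse miRNAs in the RefSeq table, and these are the 4 strands shown. miR-181a and miR-181c, of 23 and 22 bases, were 1 edit apart, whereas miR-181a was 4 edits from miR-181b and from miR-181d. No assay on either card is named for miR-181b or miR-181d, so these strands could not be followed here.

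The miR-181a sequence lies at 2 places, chr1:137966468-137966490 and chr2:38852741-38852763, both on the plus strand of GRCm38.p6. Its assay cannot tell the 2 loci apart. Mir181a-2 on chromosome 2 lies within the span of Nr6a1, a protein-coding gene for a nuclear receptor, and of the long non-coding gene Nr6a1os. No other annotated gene spans Mir181a-1. The miR-181c sequence lies at chr8:84178924-84178945 on the minus strand, 165 bases from that of miR-181d on the same strand, and no other annotated gene spans Mir181c. Whether either assay also detects the other, nearly identical strand was not measured.

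Relative to U6, both members were highest at 36 h, lower at 0 h, lower again at 60 h and lowest at 72 h. Their fall from 36 h was seen with every reference RNA tried, whereas their place against 0 h was not, as given further on. Levels are given relative to U6 small nuclear RNA, as its mean Ct on the array less that of the miRNA, so that 1 unit (log2) is a doubling. Both members had a Ct below 35, the detection limit, on 12 of 12 arrays.

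For mmu-miR-181a the level at 0 h was -10.36, -10.52 and -10.46 in replicates 1 to 3, and at 36 h it was -9.55, -9.32 and -9.54. At 60 h it was -12.30, -12.66 and -12.44, and at 72 h it was -13.31, -13.73 and -13.63. The replicates of the 4 groups did not overlap between any pair of times. The share of all assays separated in this way is not given here, so the separation is not read as particular to this member. The group means were -10.45 ± 0.084, -9.47 ± 0.132, -12.47 ± 0.177 and -13.55 ± 0.218 (SD, n = 3 each), so each neighbouring pair in the order 36, 0, 60, 72 h lay further apart than its spread.

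For mmu-miR-181c the level at 0 h was -14.80, -15.09 and -14.23, and at 36 h it was -13.96, -13.76 and -13.80. At 60 h it was -16.90, -16.87 and -17.05, and at 72 h it was -17.91, -18.46 and -17.64. Again no group overlapped another, with the same limit, but the replicates at 0 h and at 72 h were more scattered than those of miR-181a. The group means were -14.71 ± 0.435, -13.84 ± 0.104, -16.94 ± 0.094 and -18.00 ± 0.416 (SD, n = 3 each). The assays are not calibrated against each other, so the lower values of miR-181c are not read as fewer molecules than miR-181a.

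**Figure D1:**
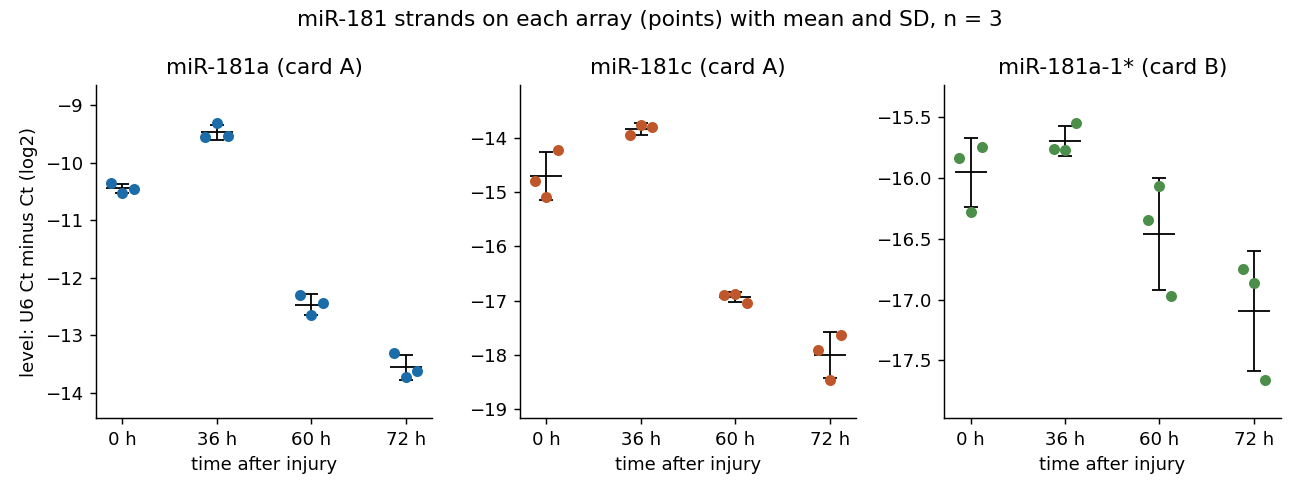
Level of mmu-miR-181a, mmu-miR-181c and mmu-miR-181a-1* (U6 Ct minus assay Ct, log2) at each time after injury. Points are the 3 replicate arrays, bars mark the mean and SD, and each panel has its own vertical scale. Relative to U6, both 5′ strands peak at 36 h and are lowest at 72 h with no overlap between times, while the groups of the star strand overlap. The share of all assays without overlap is not given.

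Against quiescent cells, both members had fallen by 60 h and 72 h relative to U6, but not relative to snoRNA202. miR-181a fell by 2.02 ± 0.13 (SE) on the log2 scale at 60 h, a 4.05-fold decrease, with an adjusted p of 1.28e-07 (limma, Benjamini-Hochberg). miR-181c fell by 2.24 ± 0.24, a 4.71-fold decrease, with an adjusted p of 8.39e-06. A call needed a change of 2-fold or more with an adjusted p under 0.05, and both were called lower, against 36.4% of the 250 assays tested on both cards.

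At 72 h miR-181a fell by 3.11 ± 0.13, 8.61-fold (adjusted p 3.56e-09, limma). miR-181c fell by 3.30 ± 0.24, 9.84-fold (adjusted p 3.48e-07, limma). Both were again called lower, where 45.9% of the 244 assays tested were. A lower call was therefore common. Counted from the most decreased, miR-181a ranked 36 and miR-181c 32 of 166 card A assays at 72 h, and 42 and 35 of 168 at 60 h.

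At 36 h the change against 0 h was 0.98 ± 0.13 for miR-181a, or 1.97-fold, and 0.86 ± 0.24 for miR-181c, or 1.82-fold. The adjusted p values were 5.29e-05 and 0.00688 (limma), so both passed that threshold but neither reached the 2-fold minimum and neither was called. Of the 272 assays tested, 56.2% were called in either direction. The median card A assay differed by 0.91 in this comparison, which places both members near the middle of the card, at ranks 94 and 86 of 177. The miR-181a value sat so close to the minimum that it passed in 3 of 12 settings that left out 1 array (without 0 h replicate 1, 36 h replicate 1 or 36 h replicate 3), with 0.90 to 1.02 over the 12. For miR-181c the range was 0.67 to 1.10, and it passed only without 0 h replicate 3.

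Between activated cells, the largest step came between 36 and 60 h. miR-181a fell by 2.99 and miR-181c fell by 3.10 on the log2 scale, which is 7.97-fold and 8.57-fold (adjusted p 8.11e-09 and 8.04e-07, limma). Both were called lower, against 49.5% of 279 assays tested. The card A median fell by 1.27 over the same interval.

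From 60 to 72 h miR-181a fell by 1.09 and miR-181c fell by 1.06, or 2.13-fold and 2.09-fold (adjusted p 3.23e-05 and 0.00248, limma), against 35.8% of 265 assays called lower. The card A median fell by 0.87, so the members lay close to it. Without 72 h replicate 2 the miR-181c value was -0.83 and was no longer called. From 36 to 72 h miR-181a fell by 4.08 and miR-181c fell by 4.16, or 16.9-fold and 17.9-fold (adjusted p 3.66e-10 and 4.69e-08, limma), against 69.3% of 270 assays called lower. The comparisons with a shared 0 h or 36 h group rest on the same arrays and are not independent of each other.

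**Figure D2:**
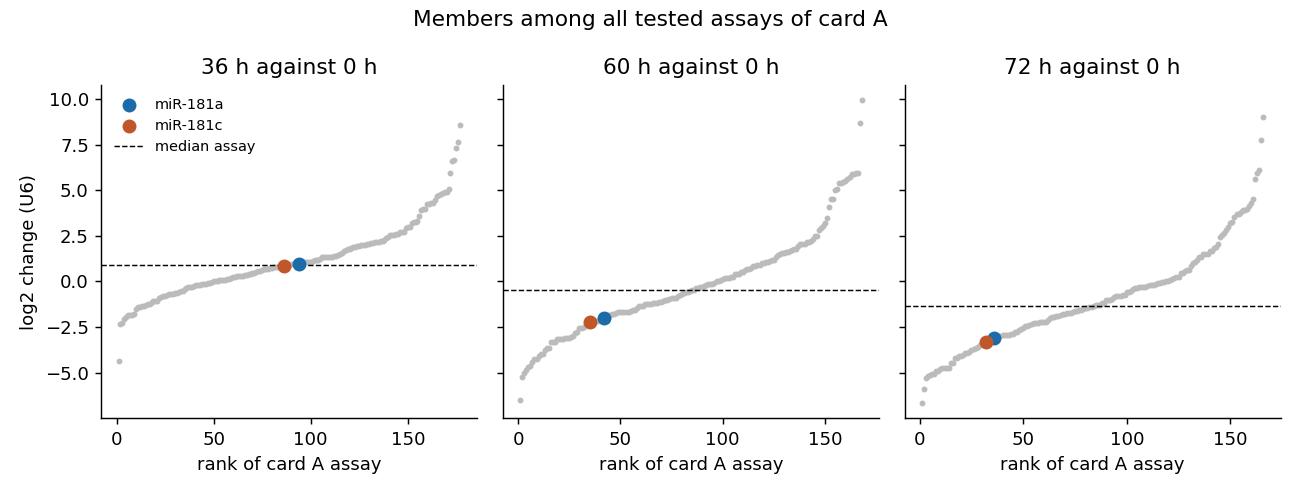
Log2 change against 0 h of every tested card A assay, ordered from most decreased to most increased, at 36, 60 and 72 h, with mmu-miR-181a and mmu-miR-181c marked. At 36 h the members lie near the middle of the card (ranks 94 and 86 of 177), and at 72 h among the more decreased assays (ranks 36 and 32 of 166).

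The 2 members were then compared within each array, where the normalizer cancels. The Ct of miR-181c minus that of miR-181a was 4.44, 4.56 and 3.77 at 0 h and 4.41, 4.45 and 4.26 at 36 h. It was 4.60, 4.22 and 4.61 at 60 h, and 4.60, 4.73 and 4.02 at 72 h. The 4 groups overlapped, and the lowest values belonged to 0 h replicate 3 and 72 h replicate 3.

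The difference had changed by 0.12 at 36 h against 0 h (95% interval -0.53 to 0.76), by 0.22 at 60 h (-0.42 to 0.86) and by 0.19 at 72 h (-0.45 to 0.83). None of the 6 comparisons between times passed the test, with a limma p adjusted over the 6 of 0.93 for each. An exact two-sided permutation test gave 0.5 to 0.9 over the 6, where 0.1 is the smallest p that 3 against 3 arrays allow. A shift of the 2 members against each other of up to 0.86 was thus not excluded by the intervals against 0 h, while larger shifts lay outside them.

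**Figure D3:**
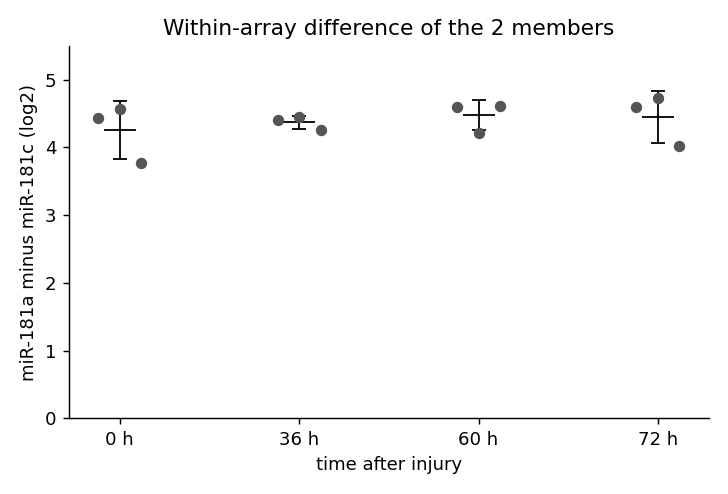
Within-array difference between the levels of mmu-miR-181a and mmu-miR-181c (log2, no normalizer involved) for the 12 card A arrays, with the mean and SD of each time. The groups overlap, with means of 4.26 to 4.48.

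The direction against quiescent cells depended on the RNA that the level was set against. Other small RNAs on card A did not keep a constant ratio to U6. The small nucleolar RNA snoRNA202 changed by -0.88, -2.41 and -3.05 (log2) at 36, 60 and 72 h against 0 h, and snoRNA135 by -0.22, -0.34 and -0.87. The change of Y1, a small cytoplasmic RNA, was 0.65, 0.11 and -0.33. That of U87, the remaining control RNA of card A, was -0.15, -1.06 and -1.50, and U87 was not tried as a reference.

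Relative to snoRNA202, miR-181a differed from 0 h by 1.85, 0.39 and -0.06 at 36, 60 and 72 h, and miR-181c by 1.74, 0.17 and -0.25. The 36 h increases were then called and the later decreases were not, and at 60 h both signs turned. On this scale the median card A assay was 1.79, 1.91 and 1.68 above 0 h. A change of reference moves every assay of a card alike, so the distance of the members from that median is the same under each.

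Relative to snoRNA135, miR-181a changed by 1.19, -1.68 and -2.24, and relative to Y1 it differed by 0.33, -2.13 and -2.78. With the mean of the card A assays detected on every array as the reference, miR-181a differed by -0.31, -1.86 and -2.07. The values of miR-181c were 1.08, -1.90 and -2.43 against snoRNA135, 0.21, -2.35 and -2.97 against Y1, and -0.43, -2.08 and -2.27 against that mean. Both members were called lower at 60 and 72 h in these 3 settings, were called higher at 36 h with snoRNA135, and had a negative, uncalled 36 h value with the mean of assays.

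The decrease from 36 h to 60 and 72 h was called for both members under U6 and under each of the 4 other references. With snoRNA202, the log2 change of miR-181a was -1.47 and -1.91, and that of miR-181c was -1.57 and -1.99. With the mean of assays they were -1.55 and -1.76 for miR-181a and -1.65 and -1.84 for miR-181c. The further decrease from 60 to 72 h was called only with U6 among the 5 references.

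**Figure D4:**
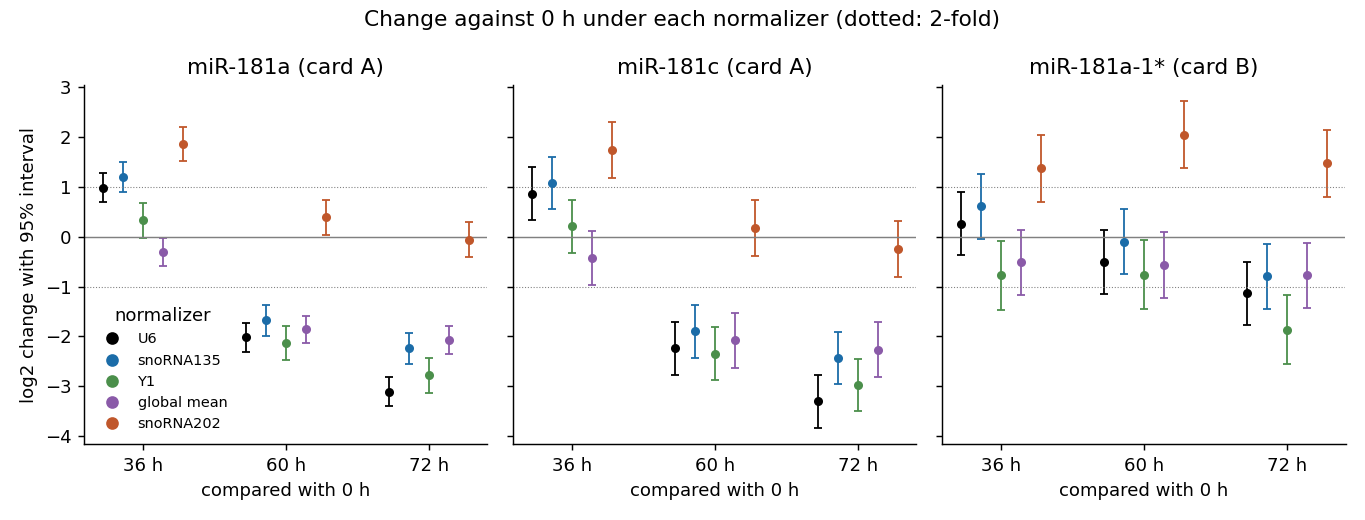
Log2 change of mmu-miR-181a, mmu-miR-181c and mmu-miR-181a-1* against 0 h at 36, 60 and 72 h. The reference was U6, snoRNA202, snoRNA135, Y1 or the mean of the detected assays. Error bars are 95% intervals of the limma fit, and dotted lines mark a 2-fold change. With snoRNA202 the 60 and 72 h values of the 2 members lie near 0 (0.39 and -0.06 for miR-181a). With the other references those values lie between -1.68 and -3.30. The star strand stands at 2.04 and 1.47 at these times with snoRNA202, and between -0.10 and -1.86 with the others.

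The star strand is named for the 3′ arm of Mir181a-1, 1 of the 2 miR-181a loci. In RefSeq it is 2 edits from the 3′ strand of Mir181a-2 and 2 edits from that of Mir181c, and cross-detection of these was not measured. It is shown in its hairpin, chr1:137966455-137966541 on the plus strand of GRCm38.p6 (RefSeq, 87 bases), with both mature strands in capitals, the 5′ strand first.
Mir181a-1 hairpin: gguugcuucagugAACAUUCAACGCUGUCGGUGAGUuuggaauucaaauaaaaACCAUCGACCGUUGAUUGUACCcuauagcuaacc
miR-181a-1-3p: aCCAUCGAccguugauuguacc
The second line is the star strand alone, with its own seed in capitals, which is not the seed of the family.

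The level of mmu-miR-181a-1* was -15.84, -16.28 and -15.75 at 0 h and -15.76, -15.77 and -15.55 at 36 h. It was -16.35, -16.07 and -16.97 at 60 h, and -16.75, -16.87 and -17.66 at 72 h. The 36 h group overlapped the 0 h group, and the 60 h group overlapped those of 0 h and 72 h. The 2 spots of the assay differed by up to 1.92 cycles, on 72 h replicate 3, and by 1.58 cycles on 60 h replicate 3.

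The star strand differed from 0 h by 0.26 ± 0.29 (SE) at 36 h and by -0.51 ± 0.29 at 60 h, with limma adjusted p values of 0.426 and 0.116. At 72 h it fell by 1.14 ± 0.29, a 2.2-fold decrease (adjusted p 0.0033, limma), and was called. Without 72 h replicate 3 the value was -0.85 and the call was lost. The call was also lost with snoRNA135 (-0.79) and with the mean of the card's assays (-0.77), and it was kept with Y1 (-1.86). Relative to snoRNA202 the sign turned, with 2.04 at 60 h and 1.47 at 72 h. The star strand and miR-181a lie on different cards, and no test set their changes against each other.

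Near miR-181c on chromosome 8 lies the cluster of miR-23a, miR-27a and miR-24, on the opposite strand. The lowest genome coordinates of their mature sequences lie 29639, 29803 and 29951 bases from that of miR-181c. miR-24 also comes from a second locus. The comparison with these neighbours was added after the data were seen. miR-23a had no Ct on any of 12 arrays.

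Set against miR-181c within each array, with no normalizer, miR-27a was higher by 1.21 at 36 h than at 0 h (95% interval 0.54 to 1.88, limma adjusted p 0.00338). The gap had grown by 3.24 at 60 h (2.57 to 3.91, adjusted p 5.57e-08) and by 3.01 at 72 h (2.34 to 3.68, adjusted p 1.33e-07). miR-24 differed from miR-181c by -0.27 at 36 h (-0.93 to 0.39, adjusted p 0.476), and then rose against it by 1.57 at 60 h (0.91 to 2.23, adjusted p 0.000202) and 1.72 at 72 h (1.06 to 2.38, adjusted p 7.61e-05). From 36 to 60 h the gap to miR-181c grew by 1.83 for miR-24 and by 2.03 for miR-27a (limma adjusted p 4.65e-05 and 1.8e-05). From 60 to 72 h it differed by 0.16 (-0.51 to 0.82, adjusted p 0.747) and -0.23 (-0.90 to 0.44, adjusted p 0.64), and no change was called.

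Likeness to the members was measured across the 151 other card A assays detected on 12 of 12 arrays, as the root mean square difference between centred profiles over these arrays. It is a description, since the arrays share 4 time groups and a common normalizer. The assays nearest to miR-181a were miR-30d at 0.159, miR-30a at 0.183, miR-181c at 0.268, miR-376a at 0.271 and miR-26b at 0.333, where the median assay lay at 1.03. Those nearest to miR-181c were miR-181a at 0.268, miR-30a at 0.345, miR-30d at 0.347, miR-26a at 0.381 and miR-376a at 0.391, with a median of 1.07. The 2 members were thus near each other, yet miR-30d and miR-30a lay nearer to miR-181a than miR-181c did.

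**Figure D5:**
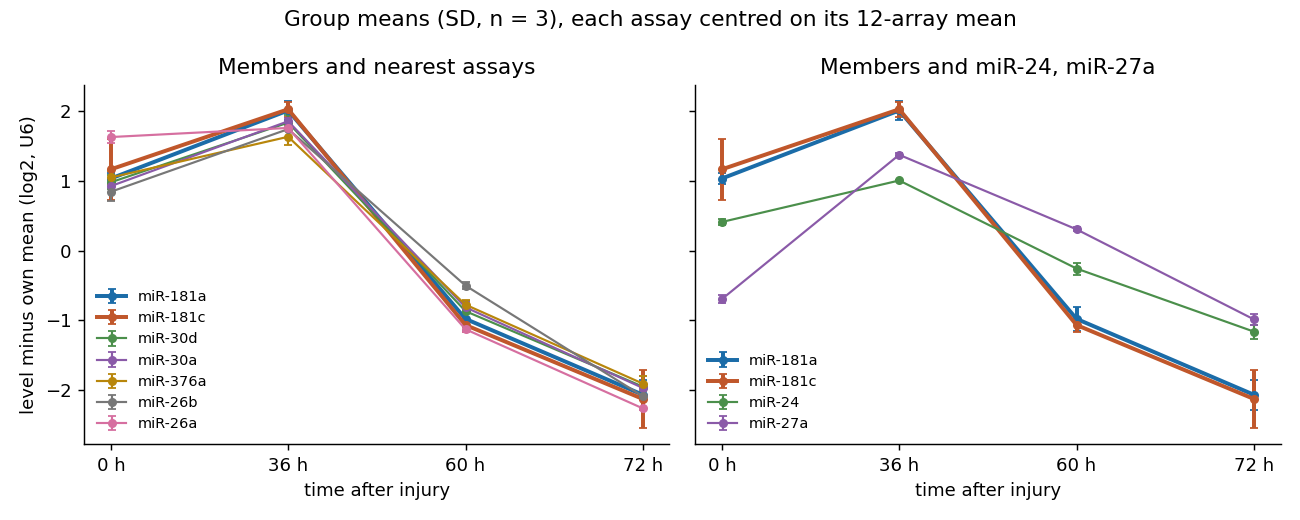
Centred log2 levels over the 4 times of mmu-miR-181a, mmu-miR-181c with the card A assays nearest in profile in 1 panel and the chromosome 8 neighbours miR-24 and miR-27a in the other, as group means with SD (n = 3). Relative to U6, every line peaks at 36 h and is lowest at 72 h, and miR-27a alone lies higher at 60 h (0.31) than at 0 h (-0.70).

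The other miRNAs reported in myogenic differentiation did not share 1 course. Of 13 assays tested, among them a mouse and a rat assay for miR-1, 8 were called higher and 0 lower at 36 h against 0 h, 8 higher and 3 lower at 60 h, and 7 higher and 5 lower at 72 h. Over all assays tested, 44.1% were called higher at 36 h, 28% at 60 h and 20.9% at 72 h, the background for the counts of higher calls in all lists. Their median changes were 1.92, 1.70 and 1.11, beside 0.82, -0.37 and -0.77 over all assays tested. With snoRNA202 the counts were 13 and 0, 11 and 0, and 11 and 0, and with the mean of assays they were 4 and 1, 7 and 2, and 8 and 2. The cards hold 17 assays of this list. miR-208b, miR-486 and miR-499 were detected on no array and miR-503 on none at 0 h, so these were not tested against 0 h.

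The largest rise of this list at 60 h was that of miR-322, by 5.96 ± 0.28, and miR-29b rose by 3.055 ± 0.36 (adjusted p 1.3e-08 and 2.08e-05, limma). Their mean levels at 0 h were -17.00 and -16.99. At 60 h miR-133b, enriched in muscle, rose by 5.61 ± 0.11 and miR-206, a miRNA of skeletal muscle, by 2.05 ± 0.12 (adjusted p 1.23e-11 and 2.12e-08, limma). miR-26a, which represses Ezh2 in differentiating myoblasts, fell by 2.76 ± 0.06 and miR-214, which also represses Ezh2, fell by 1.48 ± 0.05 (adjusted p 1.5e-11 and 1.89e-09, limma). Relative to U6, the members moved in the direction of miR-26a and miR-214 at 60 h. They did not move in that of miR-322, miR-29b or the muscle-enriched assays. With snoRNA202 none of the listed assays or members was called lower at 60 h.

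Because miR-181 is abundant in lymphocytes, markers of other cells that a muscle preparation can hold are given beside its levels. Of 5 leukocyte miRNAs tested, 4 were higher and 0 lower at 36 h, 3 higher and 1 lower at 60 h, and 2 higher and 1 lower at 72 h. miR-150, of mature lymphocytes, fell by 3.67 ± 0.08 at 60 h, while miR-223, of myeloid cells, rose by 4.06 ± 0.07 (adjusted p 3.87e-11 and 5.14e-12, limma). The lymphoid assays did not move together. Of 3 tested at 60 h, 2 were called higher, miR-142-3p by 5.91 ± 0.59 and miR-155 by 1.91 ± 0.07, and only miR-150 was called lower. The mean level of miR-142-3p at 0 h was as low as -18.22. The summed level of the card A leukocyte list, relative to U6 and over assays that are not calibrated against each other, was carried largely by miR-150 at 0 h. Its log2 was -5.38 to -5.34 at 0 h and -3.72 to -3.65 at 36 h. It was -6.57 to -6.44 at 60 h and -7.42 to -7.29 at 72 h. miR-142-5p was detected on no array at 0 h.

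The endothelial assays miR-126-3p and miR-126-5p were called higher in 2 of 2 at 36 h and lower in 2 of 2 at 60 and 72 h. Their summed log2 level was -4.52 to -4.44 at 0 h, -2.30 to -2.28 at 36 h, -6.28 to -6.19 at 60 h and -6.42 to -6.40 at 72 h. Of 4 miRNAs of mesenchymal and smooth muscle cells, 3 were called higher at 36 h and 3 lower at 60 and 72 h. The mesenchymal miR-214 is also counted in the myogenic list above. Over all assays, 36.4% were called lower at 60 h and 45.9% at 72 h. With snoRNA202, 0 of 2 endothelial and 1 of 4 mesenchymal assays were called lower at 60 h. At 72 h with snoRNA202, 1 endothelial assay was called higher and 0 lower, and 2 mesenchymal assays were called higher and 1 lower. With the mean of assays, 0 of 2 endothelial assays were called higher at 36 h and 1 of 2 lower at 72 h. For the mesenchymal assays that mean gave 2 higher and 1 lower at 36 h, and 2 lower at 72 h.

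From 36 to 60 h, the interval of the largest fall of the members, 5 of 6 leukocyte, 2 of 2 endothelial and 4 of 4 mesenchymal assays were called lower, where 49.5% of all assays were. With snoRNA202 these counts were 4 of 6, 2 of 2 and 4 of 4, and 1 leukocyte assay was called higher. The erythroid miR-451 and the epithelial miR-203 were called lower as well, the latter not with snoRNA202 or with the mean of assays. Of 14 tested assays of the myogenic list, 6 were called lower and 2 higher over this interval. With snoRNA202, 2 were called lower and 7 higher. The leukocyte miR-155 changed by -0.10 and was not called. Most markers of other cells thus fell over the same interval as miR-181a and miR-181c, but the decrease was not confined to such markers.

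The muscle-enriched assays, again with 2 for miR-1, were called higher against 0 h in 4 of 5 at 36 h and in 5 of 5 at 60 and 72 h, the latter under U6 and each of the 4 other references. The erythroid miR-451 was detected on no array at 0 h, and the epithelial miR-141, miR-200a and miR-200b were detected on no array at any time. Another epithelial miRNA, miR-203, was detected throughout, with mean levels of -9.16, -8.72, -10.85 and -12.13 at 0, 36, 60 and 72 h, and it was called lower at 60 and 72 h against 0 h (-1.68 and -2.97 relative to U6). miR-200c was detected on at least 1 array at 36 and at 72 h, and miR-205 at 36 h. The part of other cells in the miR-181 levels was not tested. In these bulk RNA samples, fewer cells of a type and less RNA per cell cannot be told apart.

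The authors' deposited table gives average fold changes against the first time point. For miR-181a it lists 1.99 at 36 h and 0.247 at 60 h, and for miR-181c 1.89 and 0.222. For the 2 spots of mmu-miR-181a-1*, the authors' deposited table lists 6.18 and 5.82 at 36 h, where the levels above give 1.2-fold. On card A the table subtracts a constant that lies within 0.001 of the group's U6 mean. For card B at 36 h it subtracts 16.97, whereas U6 averaged 14.7 on those arrays, a gap of 2.26 cycles.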

How the data were processed

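Per the labels, RNA was extracted with Trizol, and rodent TaqMan cards went through 40 PCR cycles on the ABI 7900HT. The score deposited by the authors for each spot is its Ct, an inverse log2 measure, its software and threshold not given in the sources used here. Linear ratio (fold) columns were made by the authors and are quoted as theirs. Another 48 columns of values per sample in those tables, the last time point among them, were left out. Ct values carry no read depth. The 3 replicates of each group limit the precision.

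Levels are the mean of 4 MammU6 spots minus the mean Ct of the assay, per array. Detection needed a Ct below 35 in every spot, and undetected values were left out. Testing required 2 or more detected replicates on either side, in 1 limma 3.58.1 fit per card (R 4.3.3, lmFit and eBayes) over its 12 arrays, and p-values were adjusted by Benjamini-Hochberg over both cards. Calls needed an adjusted p below 0.05 and a 2-fold change. The difference between the members, and between miR-181c and its neighbours, was fitted in the same way with levels relative to miR-181c. The code was tested on simulated data.

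Named assays were the members, the star strand, the 5 assays nearest in profile to each member, the chromosome 8 neighbours and listed miRNAs. The members and lists were chosen with earlier results of these data known. Alternatives covered 4 normalizers, U6 averaged per group, detection limits, undetected values at Ct 35, separate fits per comparison, a trended prior, the replicate number as a block and each array left out in turn. For the star strand and the neighbours, these alternatives were added after the data were seen. Sequences and their positions came from RefSeq (GRCm38.p6), matched by name, with -5p added for the members and -3p for the star strand.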

Additional observations from a re-analysis of the deposited data

How the results depend on the processing

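The normalizer was the choice that changed most. With snoRNA202, miR-181a and miR-181c stood at 1.85 and 1.74 at 36 h against 0 h (called), at 0.39 and 0.17 at 60 h (sign turned), at -0.058 and -0.25 at 72 h (not called), and at -0.45 and -0.42 from 60 to 72 h (not called). With snoRNA135 they were 1.19 and 1.08 at 36 h (called) and -0.56 and -0.53 from 60 to 72 h (not called). With Y1 they were -0.66 and -0.63 from 60 to 72 h (not called). With the mean of the detected assays they were -0.31 and -0.43 at 36 h (sign turned, not called) and -0.21 and -0.19 from 60 to 72 h (not called). For mmu-miR-181a-1*, snoRNA202 turned the sign at 60 h (2.04), at 72 h (1.47), from 36 to 60 h (0.68) and from 36 to 72 h (0.11). Y1 turned it at 36 h (-0.77) and from 36 to 60 h (0.011), and the mean of assays at 36 h (-0.52). Its call at 72 h was lost with snoRNA135 (-0.79) and the mean of assays (-0.77), and from 36 to 72 h with the mean of assays (-0.25). miR-24 turned with snoRNA202 at 60 and 72 h (1.74 and 1.47), and at 36 h with Y1 (-0.056) and the mean of assays (-0.69). miR-27a turned at 72 h with snoRNA202 (2.76), snoRNA135 (0.57), Y1 (0.034) and the mean of assays (0.74). Counts of assays called lower with snoRNA202 were 6 (33 with U6), 20 (91) and 24 (112) at 36, 60 and 72 h, 54 (138) and 69 (187) from 36 to 60 and 72 h, and 37 (95) from 60 to 72 h. From 60 to 72 h, 97 assays were called with U6, 46 with snoRNA202, 59 with snoRNA135 and 42 with the mean of assays, of which 51 and 17 were lower in the last 2. At 36 h, 68 were lower with Y1 and 89 with the mean of assays, and from 36 h to 60 and 72 h 64 and 68 with the mean. Leaving out each array in turn, miR-181a ranged from 0.90 to 1.02 at 36 h, and miR-181c from 0.67 to 1.10 at 36 h and from -1.24 to -0.83 between 60 and 72 h. The other comparisons of the members kept their call in 12 of 12. The difference between the members, never called, ranged from -0.13 to 0.27, -0.025 to 0.37 and -0.052 to 0.41 at 36, 60 and 72 h, from -0.063 to 0.29 between 36 and 72 h and from -0.17 to 0.19 between 60 and 72 h. The star strand at 72 h ranged from -1.31 to -0.85, and miR-27a at 60 h from 0.98 to 1.03, losing its call without 0 h replicate 1 or 3 or 60 h replicate 3. With the replicate number as a block, the miR-181a change at 72 h stayed at -3.11 (adjusted p 6.81e-08, limma) and no call of the members or the star strand changed. Same-numbered replicates correlated between -0.27 and 0.36 on card A (median 0.011) and between -0.43 and 0.49 on card B (median -0.022). Of these pairs, 5 of 18 were over 0.1 on card A and 4 of 18 on card B. The latter held the 3 pairs of 0 h and 60 h (0.49, 0.49 and 0.34). Of pairs with different numbers, 7 of 36 and 13 of 36 were over 0.1. Same-numbered replicates were taken to share only a number. At a detection limit of Ct 32, miR-181c gave no value at 60 or 72 h, and the star strand could not be tested at those times. The cause of these differences was not tested.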
